A study of Drosophila melanogaster with 10 samples.

Results

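Genes of neuroblast polarity and spindle orientation, the set of baz, aPKC, par-6, insc, pins, mud, l(2)gl, dlg1 and scrib, were followed in RNA-seq libraries of Drosophila melanogaster larval brains. They were chosen by name as the Par, Scribble and spindle orientation genes of neuroblasts, and they are 9 of the 16727 genes in the count table. All 9 had enough counts to be tested, among 11146 genes tested. The libraries compared brains of 12xWT animals, named 12xHWT in the series text, with brains of yw animals, named 200xWT there, in a study of reduced histone gene copy number. The names give 12 and 200 copies. As background, animals of the design with 12 copies lack the native histone gene cluster and carry wild-type histone gene repeats as a transgene. Each library held polyA RNA of 25 brains from wandering third-instar larvae, with 3 female and 3 male 12xWT libraries and 2 female and 2 male yw libraries.

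Neuroblasts, the neural stem cells of the fly brain, divide asymmetrically: they keep an apical crescent of polarity proteins and pass fate determinants to a smaller basal daughter cell. The Par complex of Bazooka, Par-6 and the kinase aPKC sets up the apical crescent. Inscuteable binds Bazooka and recruits Pins, which binds Mud, and Mud engages dynein to turn the spindle along the polarity axis. The Scribble module of Scribble, Discs large and Lethal giant larvae acts at the cortex and at basolateral membranes, and its members were first known as tumour suppressors of larval brain and imaginal discs. The same genes also serve neuroepithelia and neurons, and in whole-brain RNA fewer cells of a type and less RNA per cell cannot be told apart.

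The libraries held from 52020154 to 79924240 counted read pairs, and levels are given in CPM, the usual scaling of a count to the library total. The gene w, mutated in yw flies, was at 0.0890 to 0.175 CPM in yw and at 224 to 299 CPM in 12xWT. The sex labels fitted less cleanly in 12xWT. The summed level of 7 Y-linked genes was 19.3 to 22.4 CPM in 12xWT males but 4.30 to 17.6 CPM in 12xWT females, the highest in replicate 2, against 0 to 0.0356 CPM in yw females and 0.105 to 0.260 CPM in yw males. Sxl, the female sex-determination switch gene, was at 534 to 609 CPM in 12xWT females, between the 707 to 765 CPM of yw females and the 286 to 331 CPM of yw males. roX2, a dosage compensation RNA of males, was at 7.34 to 15.1 CPM in 12xWT females and at 0.0769 to 2.88 CPM in yw females. In males roX2 was at 35.7 to 48.0 CPM in 12xWT and at 65.3 to 67.8 CPM in yw. roX1, another such RNA, was also lower in 12xWT males, at 1949 to 2535 CPM against 2953 to 3139 CPM in yw males. msl-2, a dosage compensation gene, was at 120 to 139 CPM against 152 to 157 CPM in the same groups. Sxl in 12xWT males, at 263 to 355 CPM, overlapped yw males. The part of these signals in the results on 12xWT females and males, and in the sex differences, was not tested. Female results are given below with and without replicate 2. Replicates 1 and 3 of 12xWT females also held Y-linked sums of 4.59 and 4.30 CPM and roX2 at 7.34 and 9.29 CPM. Leaving out replicate 2 thus lowers these signals but cannot remove them from the female results. Without replicate 2, the members other than baz and aPKC had female log2 fold changes from -0.18 (insc) to 0.11 (scrib), and none of them was called (edgeR adjusted p from 0.130 to 0.986).

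baz was the member that differed most between the genotypes, and it was lower in 12xWT brains of both sexes. The other member called in both sexes was aPKC, which was higher in 12xWT. dlg1 was lower by a like amount in females (-0.16, edgeR adjusted p = 0.0514) and males (-0.17, edgeR adjusted p = 0.0311), and was called in males only. Of the 9 genes, 1 was higher and 1 lower in 12xWT females, and 2 were higher and 2 lower in 12xWT males (edgeR quasi-likelihood test, Benjamini-Hochberg adjusted p under 0.05 over all genes tested). Over all tested genes the same test called 12.6% in females and 21% in males, and the members' share of 9 genes is to be read against it. The median log2 fold change of the members was -0.03 in females and 0.02 in males, where the median over all genes was -0.0021 and 0.0021. Library values of the genotypes did not overlap for 5 of 9 members in females and for 9 of 9 in males, against 42.7% and 51.1% of all tested genes. These values are CPM on plain totals, without the scaling used in the tests. On them the tested genes without overlap leaned higher in 12xWT. In females 2919 lay above and 1840 below, and in males 3219 above and 2481 below. In males 5 of the 9 members were not called by the test.

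**Figure D1:**
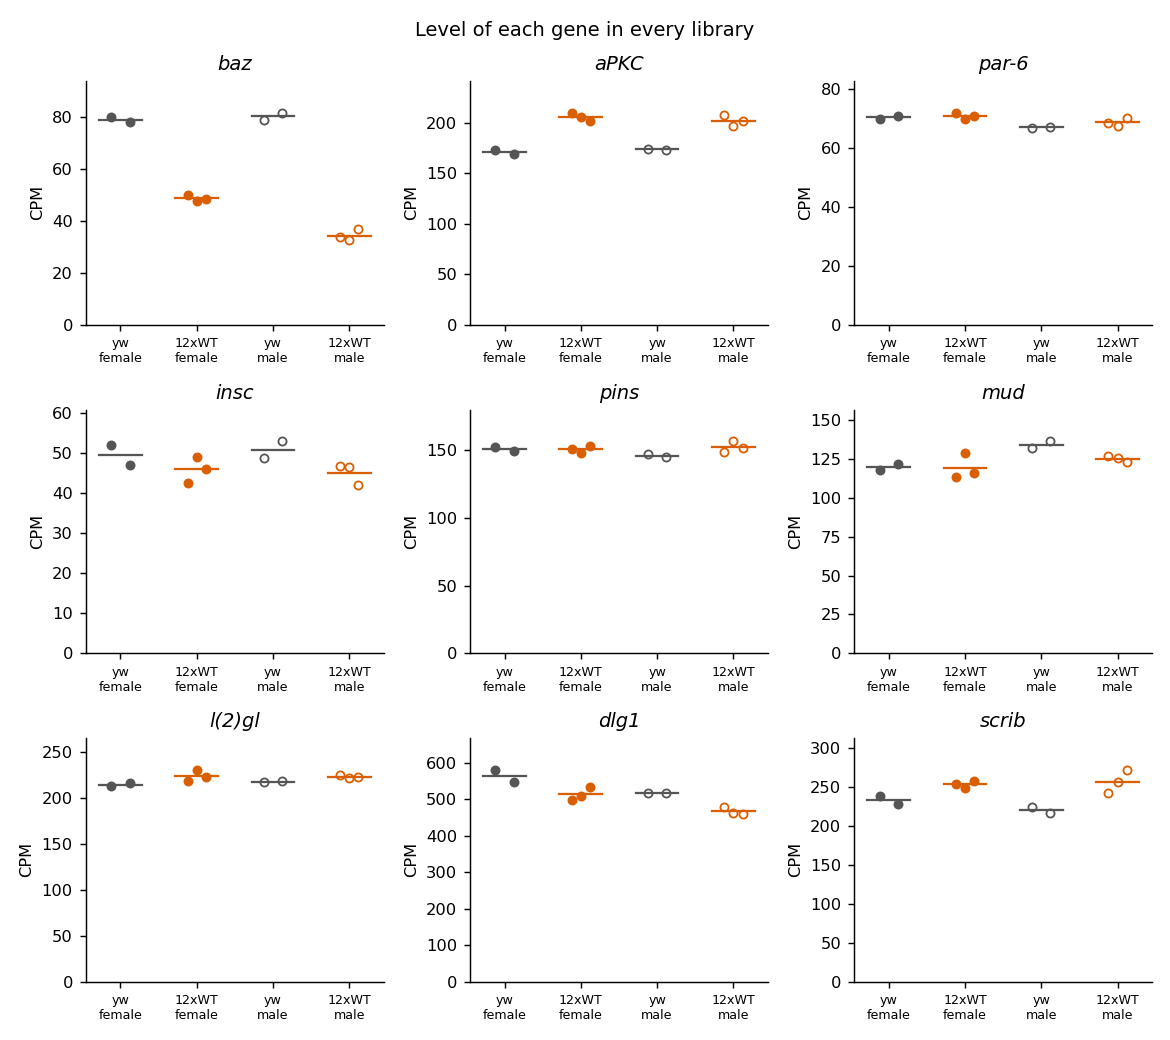
Level in CPM (y axis from 0) of each gene in every library, grouped by genotype and sex on the x axis, with 1 point per library and a bar at the group mean; filled points are female and open points male libraries. baz lies at 77.7 to 81.4 CPM in the yw libraries, at 47.6 to 49.9 CPM in 12xWT females and at 32.6 to 36.6 CPM in 12xWT males.

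baz encodes Bazooka, the Par-3 scaffold that places the apical complex. The gene (FBgn0000163) lies on X at 17160006 to 17200705 on the plus strand of dm6, with 15831 exonic bases, and shares none of them with another gene of the count table. baz stood at 79.7 and 77.7 CPM in yw females and at 78.7 and 81.4 CPM in yw males. The female 12xWT libraries held it at 49.9, 47.6 and 48.5 CPM, and the male ones at 33.6, 32.6 and 36.6 CPM. The sexes overlapped in yw, whereas every 12xWT male library lay below every 12xWT female library, and all 6 lay below all 4 yw libraries. The log2 fold change of baz in females was -0.72 (SE 0.047, 95% interval -0.82 to -0.61, adjusted p = 3.01e-06 by edgeR), a percent change of -39.2. In males the log2 fold change of baz was -1.25 (SE 0.048, 95% interval -1.35 to -1.14, edgeR adjusted p = 2.49e-08), a percent change of -57.8.

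The female value of baz was -0.70 (SE 0.054, edgeR adjusted p = 4.36e-05) without 12xWT female replicate 2, the female library with the most Y-linked signal. Of all tested genes, 10.7% had a larger absolute change than baz in females and 6.18% in males. The change in males exceeded the change in females by a log2 difference of -0.53 (SE 0.068, 95% interval -0.68 to -0.38). This genotype by sex difference had a p of 9.92e-06, the smallest of all 11146 genes, and an edgeR adjusted p of 0.111, so it did not pass the threshold. At that threshold edgeR called 0 genes, 0% of those tested, for a genotype by sex difference. At an unadjusted edgeR p under 0.05 there were 456 of the 11146 tested genes. That share is below the 0.05 that such a cut would pass if no gene differed. DESeq2 called 11 genes. baz was among those DESeq2 called (adjusted p = 1.12e-06), and edgeR called it without 12xWT male replicate 3 (adjusted p = 0.0108) but not without 12xWT female replicate 2 (adjusted p = 0.0944). It was also called by edgeR with no expression filter (adjusted p = 0.0227) and among X-linked genes alone (adjusted p = 0.00462). The log2 difference stayed between -0.59 and -0.50 in every alternative run, while the call depended on the tool, the genes fitted and 1 library.

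aPKC encodes the atypical protein kinase C of the Par complex, which phosphorylates Lethal giant larvae and the basal adaptors and so clears them from the apical cortex. It (FBgn0261854) lies on 2R at 14944458 to 14962969, minus strand, and shares 12 exonic bases with CG10257 on the other strand. In yw, aPKC stood at 172.7 and 169.3 CPM in females and at 174.3 and 173.5 CPM in males. The female 12xWT libraries held aPKC at 209.9, 206.1 and 202.3 CPM, and the male ones at 207.3, 196.9 and 201.5 CPM. Every 12xWT library lay above every yw library. Females gave a log2 fold change of 0.24 (SE 0.033, edgeR adjusted p = 5.78e-04), a rise of 18.5%. Males gave 0.20 (SE 0.032, edgeR adjusted p = 0.00197), a rise of 14.5%, and the sexes differed by -0.05 (95% interval -0.15 to 0.05). Without 12xWT female replicate 2 the female value was 0.25 (edgeR adjusted p = 0.00291). Since 29.8% of tested genes in females and 40.6% in males moved further, the change was of common size. CG10257, which shares the 12 bases, was at a mean of 0.717 CPM in yw and 1.20 CPM in 12xWT, far below aPKC.

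par-6 encodes the PDZ adaptor that joins aPKC to Cdc42 and to Bazooka. It (FBgn0026192) lies on X at 17703352 to 17707096, plus strand. par-6 stood at 66.9 to 71.0 CPM in the 4 yw libraries and at 67.5 to 72.0 CPM in the 6 12xWT libraries. Females gave a log2 fold change of -0.01 (95% interval -0.09 to 0.06, edgeR adjusted p = 0.824) and males one of 0.02 (95% interval -0.06 to 0.09, edgeR adjusted p = 0.765). The 3 subunits of the Par complex did not move together: baz was lower, aPKC was higher, and the intervals of par-6 spanned 0.

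**Figure D2:**
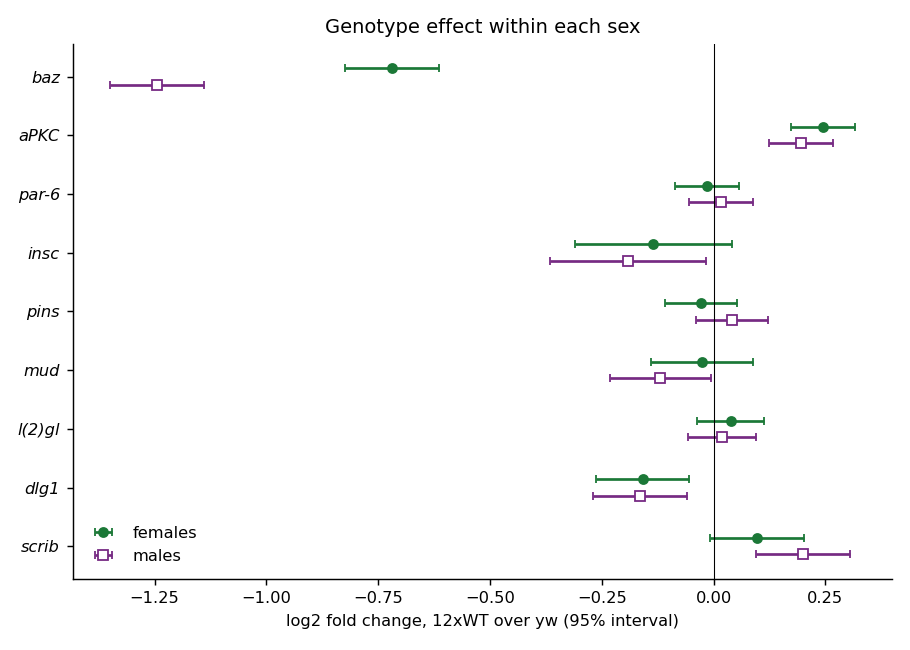
Log2 fold change of 12xWT over yw (x axis) for each gene, with females as filled circles, males as open squares and bars for the 95% interval of the fit. baz lies at -0.72 in females and -1.25 in males, while the 8 other genes lie between -0.19 and 0.24.

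Because the subunits were measured in the same libraries, their ratio could be taken within each. Per-length levels, CPM per kb of exon, were used. The ratio of baz to par-6 was 0.214 ± 0.0063 (SD, n = 2) in yw females and 0.229 ± 0.0049 (SD, n = 2) in yw males. It was 0.131 ± 0.0013 (SD, n = 3) in 12xWT females and 0.0954 ± 0.0041 (SD, n = 3) in 12xWT males, and no 12xWT library reached the yw range. The ratio of aPKC to par-6 was 1.14 ± 0.029 and 1.22 ± 0.0074 in yw females and males (SD, n = 2 each), and 1.37 ± 0.023 and 1.38 ± 0.037 in 12xWT females and males (SD, n = 3 each). These ratios describe transcripts in whole brains and carry no test.

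**Figure D3:**
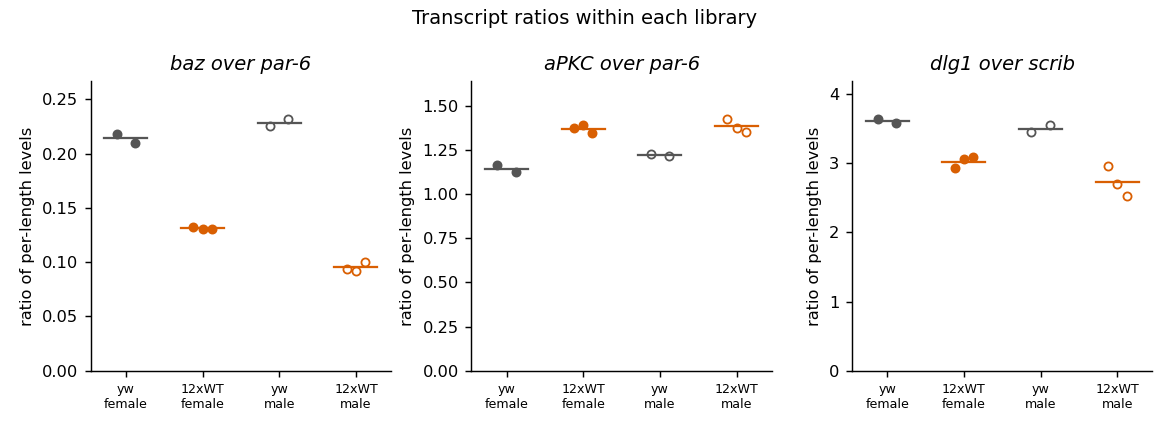
Ratio of per-length levels (y axis from 0) within each library for baz over par-6, aPKC over par-6 and dlg1 over scrib, by genotype and sex; points are libraries, filled for females and open for males, and bars are group means. baz over par-6 is at 0.210 to 0.232 in yw and at 0.0923 to 0.133 in 12xWT.

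Among the spindle orientation genes no member passed the test in either sex. insc encodes Inscuteable, the adaptor between Bazooka and Pins that in the larval brain is used as a neuroblast marker. It (FBgn0011674, 2R, 20821262 to 20836028, minus strand) stood at 52.0 and 47.0 CPM in yw females and at 48.7 and 52.8 CPM in yw males. In 12xWT it stood at 42.5, 48.9 and 46.0 CPM in females and at 46.8, 46.5 and 41.8 CPM in males. The genotypes overlapped in females, and in males the 12xWT libraries lay below the yw libraries. The log2 fold change of insc was -0.14 in females (edgeR adjusted p = 0.304) and -0.19 in males (SE 0.078, edgeR adjusted p = 0.110).

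With all 10 libraries and sex as a covariate, where 33.4% of tested genes were called, insc had a log2 fold change of -0.16 (SE 0.053, edgeR adjusted p = 0.0350). That call was lost in 9 of 17 alternatives, among them library size scaling and each of 7 single libraries left out, which makes it the least firm of the members' calls. insc also shares 359 bases, 9.24% of its exonic length, with sktl on the same strand, and sktl, a lipid kinase gene, was higher in 12xWT at 0.17 (edgeR adjusted p = 0.00136). Reads from those shared bases cannot be told apart. The neuroblast marker list, which holds insc, also had dpn, ase and mira lower: 4 of its 6 genes were called lower and 0 higher with sex as a covariate (median -0.15), beside 33.4% of all genes called in either direction. Its summed level was 557 to 594 CPM in yw and 522 to 588 CPM in 12xWT, and no marker was at 0 in every library. Its part in the insc result was not tested.

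pins encodes the GoLoco and TPR protein that links heterotrimeric G protein to Mud; the count table lists it under its older symbol raps (FBgn0040080, 3R, 27582840 to 27586376, plus strand). pins stood at 144.9 to 152.3 CPM in yw and at 147.6 to 156.5 CPM in 12xWT. For pins, females gave a log2 fold change of -0.03 (95% interval -0.11 to 0.05) and males one of 0.04 (95% interval -0.04 to 0.12), and neither passed the test (edgeR adjusted p = 0.675 and 0.468). mud encodes the NuMA-type coiled-coil protein that recruits dynein (FBgn0002873, X, 14247732 to 14258595, plus strand). In yw, mud stood at 117.7 and 121.6 CPM in females and 132.1 and 136.4 CPM in males. The female 12xWT libraries held mud at 113.4, 129.0 and 116.2 CPM, and the male ones at 127.1, 125.7 and 123.1 CPM. The highest 12xWT female value was that of replicate 2. The change of mud in females was -0.03 on the log2 scale (edgeR adjusted p = 0.796), and that in males -0.12 (SE 0.051, edgeR adjusted p = 0.123). The female value of mud was -0.08 without replicate 2 of 12xWT (edgeR adjusted p = 0.262) and 0.02 without replicate 1 (edgeR adjusted p = 0.843). With sex as a covariate mud was at -0.07 (edgeR adjusted p = 0.154), and it was called lower without 12xWT female replicate 2, at -0.10 (edgeR adjusted p = 0.0152). The per-length ratio of mud to pins was 0.293 in yw females, 0.339 in yw males, 0.293 in 12xWT females and 0.304 in 12xWT males.

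In the Scribble module, scrib was higher and dlg1 lower in 12xWT males, and l(2)gl did not pass the test in either sex. scrib encodes a scaffold with leucine-rich repeats and PDZ domains (FBgn0263289, 3R, 26536350 to 26604051, plus strand). In yw, scrib stood at 238.3 and 228.6 CPM in females and at 224.3 and 217.1 CPM in males. The female 12xWT libraries held scrib at 254.7, 249.3 and 257.7 CPM, and the male ones at 242.2, 256.3 and 272.4 CPM. All 6 12xWT libraries lay above all 4 yw libraries. The log2 fold change of scrib was 0.20 in males (SE 0.048, edgeR adjusted p = 0.0140) and 0.10 in females (SE 0.048, edgeR adjusted p = 0.221). The difference between the sexes was 0.10 (95% interval -0.05 to 0.25), an interval that spans 0. The male call was lost when yw male replicate 1 (0.22, edgeR adjusted p = 0.0571) or yw male replicate 2 (0.18, edgeR adjusted p = 0.127) was left out.

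dlg1 encodes Discs large, a membrane-associated guanylate kinase scaffold of septate junctions, neuroblast cortex and synapses (FBgn0001624, X, 11369665 to 11409776, plus strand). In yw, dlg1 stood at 580.4 and 547.2 CPM in females and at 517.4 and 516.3 CPM in males. The female 12xWT libraries held dlg1 at 498.7, 509.5 and 532.2 CPM, and the male ones at 479.4, 461.9 and 460.4 CPM. Within each sex the 12xWT libraries lay below the yw libraries, and across the sexes 12xWT females overlapped yw males. For dlg1 the log2 fold change was -0.17 in males (SE 0.047, edgeR adjusted p = 0.0311) and -0.16 in females (SE 0.047, edgeR adjusted p = 0.0514), on opposite sides of the threshold with a difference of -0.0064 between them (95% interval -0.15 to 0.14). The male call was lost without yw male replicate 1, yw male replicate 2, 12xWT male replicate 2 or 12xWT male replicate 3 (edgeR adjusted p = 0.127, 0.152, 0.0810 and 0.0773), with values from -0.17 to -0.15. It was also lost among X-linked genes alone (-0.15, edgeR adjusted p = 0.0571) and with replicate numbers as a block (-0.18, edgeR adjusted p = 0.0689). The female value passed with DESeq2 (adjusted p = 0.0183) and without 12xWT female replicate 3 (-0.20, edgeR adjusted p = 0.0241).

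l(2)gl encodes Lethal giant larvae, the substrate through which aPKC restricts the basal cortex (FBgn0002121, 2L, 9839 to 21376, minus strand). l(2)gl stood at 213.4 to 218.2 CPM in yw and at 218.8 to 230.9 CPM in 12xWT, and the ranges did not overlap. Females gave a log2 fold change of 0.04 (95% interval -0.04 to 0.11, edgeR adjusted p = 0.517) and males one of 0.02 (95% interval -0.06 to 0.09, edgeR adjusted p = 0.741). The per-length ratio of dlg1 to scrib was 3.61 ± 0.044 in yw females and 3.50 ± 0.075 in yw males (SD, n = 2 each), and 3.02 ± 0.085 in 12xWT females and 2.73 ± 0.22 in 12xWT males (SD, n = 3 each). The ratio of l(2)gl to scrib was 2.64 and 2.83 in yw females and males and 2.54 and 2.51 in 12xWT females and males.

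With sex as a covariate, 2 members were higher (aPKC 0.22, scrib 0.15) and 3 lower (baz -0.99, dlg1 -0.16, insc -0.16). These are 5 of 9 members, beside 33.4% of all tested genes called in either direction in that comparison. The edgeR adjusted p was 6.85e-05 for baz, 2.45e-05 for aPKC, 0.00244 for dlg1 and 0.00792 for scrib. Over all genes, 50.8% of the 3722 calls of that comparison were higher, and 61.2% were with library size scaling alone, which moved the median of all genes to 0.022. No member changed sign under that scaling in a called comparison. In the authors' deposited table, whose fold changes run from 12xWT to yw and so carry the opposite sign, baz was at 0.96 (adjusted p = 1.88e-18 by DESeq2), aPKC at -0.22, dlg1 at 0.16, insc at 0.16 and scrib at -0.15.

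The members differed widely in abundance. By mean per-length level over the 10 libraries the order was pins 45.8, dlg1 44.4, l(2)gl 36.9, aPKC 29.8, par-6 22.9, scrib 14.2, mud 13.97, insc 12.2 and baz 3.58. Over all 10 libraries the ranges overlapped for pins (44.2 to 47.7) and dlg1 (40.0 to 50.5), and for each pair of scrib, mud and insc. Within groups the order of pins and dlg1 turned: in yw females dlg1 (47.6 to 50.5) lay above pins (45.6 to 46.4), and in 12xWT males dlg1 (40.0 to 41.7) lay below pins (45.2 to 47.7). mud lay above insc without overlap in yw males and in 12xWT females and males, and overlapped it in yw females. baz was lowest in every group, with group means of 4.97 in yw females, 5.06 in yw males, 3.07 in 12xWT females and 2.16 in 12xWT males. Exonic length sums over isoforms, and with the length of the longest Ensembl transcript dlg1 (70.4) passed pins (45.8), aPKC (41.9) passed l(2)gl (39.9) and scrib (25.9) passed par-6 (22.9), while baz stayed last at 5.42.

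Of the 9 tested genes within 50 kb of baz with a mean of at least 1 CPM, 0 were called in females and 2 in males, beside 12.6% and 21% of all tested genes. The nearest tested gene before it, xmas-2, ends 700 bases away and stood at 66.8 to 68.6 CPM in yw and at 62.8 to 69.0 CPM in 12xWT. For xmas-2, females gave a log2 fold change of -0.06 and males one of -0.05 (edgeR adjusted p = 0.396 and 0.455). The nearest tested gene after it, CG5162, starts 14599 bases away and was at a mean of 0.101 CPM in yw and 0.357 CPM in 12xWT. CG5162 had log2 fold changes of 1.65 in females and 1.89 in males, and it was not called (edgeR adjusted p = 0.281 and 0.200). Within 50 kb of baz 20 genes were tested, of which 1 was called in females and 3 in males. With sex as a covariate, where 33.4% of all genes were called, 3 of the 20 were higher and 1 was lower, with a median log2 fold change of -0.02.

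**Figure D4:**
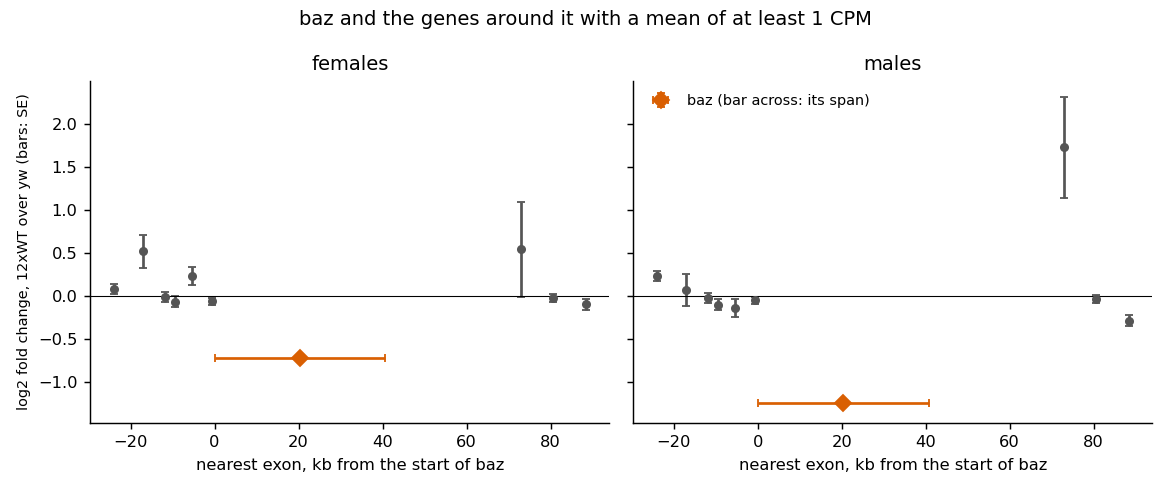
Log2 fold change of 12xWT over yw (y axis, bars for the SE) of baz, shown as a diamond with a bar across its span, and of the 9 genes within 50 kb with a mean of at least 1 CPM, by distance of their nearest exon from the start of baz in kb (x axis), in females and males. The 9 genes lie between -0.10 and 0.54 in females and between -0.29 and 1.73 in males, all above baz.

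Other genes with the pattern of baz over the 10 libraries lay elsewhere. Likeness was measured as the root mean square difference of log2 CPM after centring each gene on its mean, over all 10 libraries. Sik2, a salt-inducible kinase gene on X at 2055316 to 2061915, was nearest at 0.0805. Sik2 stood at 247 to 248 CPM in yw females, 227 to 231 CPM in yw males, 151 to 166 CPM in 12xWT females and 97.1 to 111 CPM in 12xWT males. CG43921, on X at 12516634 to 12568452, followed at 0.105, with log2 fold changes of -0.63 in females and -1.07 in males. ine, a neurotransmitter transporter family gene on 2L at 4468000 to 4477022, was the third at 0.154, with -0.85 and -1.16. Since they were picked for likeness to baz, these values are a description with no test.

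Partner genes of the members were grouped into 6 lists by role, 50 genes in all, and all 50 were tested. In females 2 were higher and 3 lower, in males 3 were higher and 6 lower, and with sex as a covariate 5 were higher and 16 lower, with medians of -0.03, -0.05 and -0.04. Over all tested genes 12.6%, 21% and 33.4% were called in these comparisons. No gene of the lists passed the test for a genotype by sex difference. Among 12 apical partners, Galphai, the G protein subunit that binds Pins, had the largest change. It stood at 187 to 208 CPM in yw and at 151 to 158 CPM in 12xWT, with no overlap. For Galphai, females gave a log2 fold change of -0.42 (SE 0.040, edgeR adjusted p = 4.67e-05) and males one of -0.35 (SE 0.040, edgeR adjusted p = 1.54e-04). loco, a regulator of G protein signalling that also marks glia, was higher at 0.20 in females and 0.27 in males (edgeR adjusted p = 0.0340 and 0.00477). Ggamma1, another G protein subunit, was lower at -0.11 with sex as a covariate (edgeR adjusted p = 0.00630).

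Of 4 Crumbs complex genes only sdt, the MAGUK that binds Crumbs, was lower (-0.08, edgeR adjusted p = 0.0178 with sex as a covariate, as for the values that follow). Of 6 basal determinants and adaptors, mira, the adaptor of Prospero and Brat, was lower at -0.14 (edgeR adjusted p = 0.0462), and numb, the Notch inhibitor, at -0.07 (edgeR adjusted p = 0.0461). Of 9 basolateral partners, 2 were higher and 1 lower, beside 33.4% of all tested genes called in either direction in that fit. cora, a septate junction protein, was at 0.15, gukh, a binding partner of Discs large and Scribble, at 0.09, and yrt, a regulator of Crumbs, at -0.09 (edgeR adjusted p = 0.00247, 0.0475 and 0.0497). cora was also called in each sex (0.15 in females and 0.14 in males, edgeR adjusted p = 0.0433 and 0.0385).

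The counts of the next lists are also to be read against the 33.4% of all tested genes called with sex as a covariate. Of 11 spindle and dynein partners, 2 were higher and 4 lower. The lower ones with the largest changes were ed, an adhesion protein, at -0.19, ctp, a dynein light chain, at -0.15, and wts, the Hippo pathway kinase, at -0.13 (edgeR adjusted p = 0.00383, 0.0111 and 0.00444). Of 8 polarity kinases and phosphatases 5 were lower and 0 higher (median -0.09). Cdk1 was at -0.19, polo at -0.16 and Pp4-19C, the catalytic subunit of protein phosphatase 4, at -0.12 (edgeR adjusted p = 0.00311, 0.00301 and 9.72e-04). Pp4-19C was called in each sex too (-0.14 and -0.10, edgeR adjusted p = 0.00741 and 0.0392).

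Marker lists of other cell types moved beside these counts. In the fit with sex as a covariate 33.4% of all tested genes were called. Of 6 neuronal markers 4 were lower (median -0.11), and their summed level was 4581 to 4716 CPM in yw and 3967 to 4418 CPM in 12xWT. Of 8 ring gland markers 6 were higher (median 1.10), with 79.5 to 222 CPM in yw and 225 to 498 CPM in 12xWT. Of 6 imaginal disc markers 4 were lower (median -0.17), and fat body markers, none of them called, ranged from 7.84 to 201 CPM in yw and from 39.4 to 508 CPM in 12xWT. Of the other lists, glia had 1 gene higher and 2 lower, optic lobe neuroepithelium 1 and 1, muscle and haemocytes 1 and 0 each, and salivary gland 0 and 0. No marker was at 0 in every library, and their part in the members' changes was not tested.

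**Figure D5:**
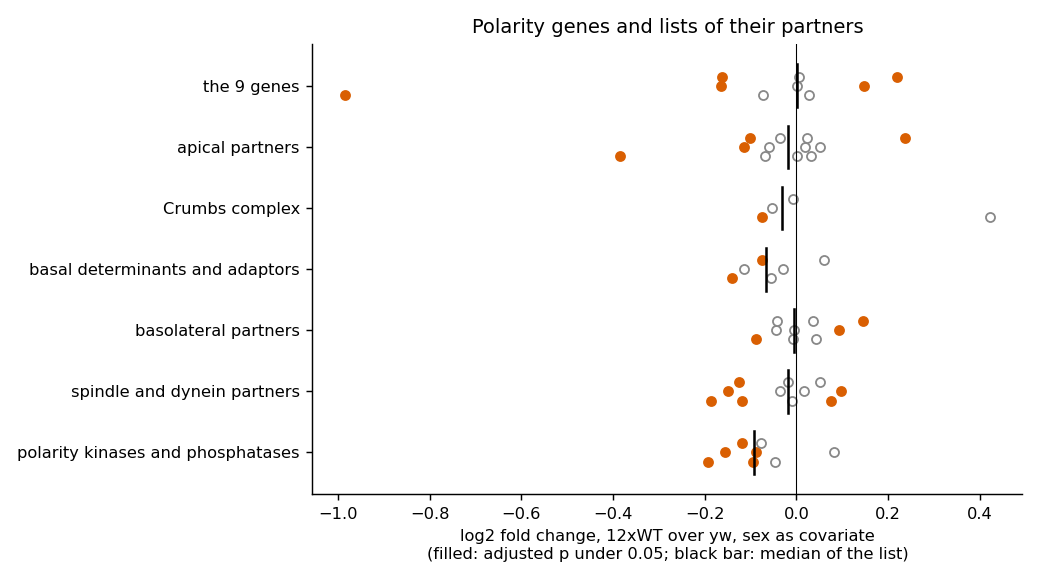
Log2 fold change of 12xWT over yw with sex as a covariate (x axis) for the 9 genes and for each of the 6 partner lists (rows), with 1 point per gene, filled where the edgeR adjusted p is under 0.05, and a black bar at the list's median. baz at -0.99 stands far to the left of every partner, the lowest of which is Galphai at -0.39.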

How the data were processed

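The authors deposited counts of read pairs per gene, made without a strand option over exons per the file headers from a stranded polyA kit per the labels' protocols. STAR 2.7.7a, Subread 2.0.1 and dm6 are named by the submitters' processing notes. The deposited comparison table holds the authors' DESeq2 1.34.0 results: a mean normalized signal, log2 fold change with its error, and adjusted p-value. All 10 count columns matched a sample by title; 0 columns of other samples were left.

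Counts were fitted in edgeR 4.0.16 (R 4.3.3; limma 3.58.1) with TMM scaling (0.985 to 1.02), the filterByExpr minimum and robust quasi-likelihood F tests, 1 mean per genotype and sex over all 10 libraries, adjusted by Benjamini-Hochberg over 11146 genes at 0.05. A fit with sex as a covariate and DESeq2 1.42.0 were added. The script was tested on simulated data. Intervals are 95% and use the fit's own spread. CPM and per-length levels use plain totals. Precision is limited by 2 or 3 libraries per group. Libraries of a group differed by 9.16 to 28.7 times sampling noise (chi-square per degree of freedom), so none was a copy of another library. The labels name no batch, and do not say whether replicates are separate crosses or pools. The p-values therefore judge a difference only against the spread between these libraries, estimated over all groups and moderated over genes.

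The members and lists were chosen with earlier results of these data known. All members were named whatever their values. Of the lists, genes called in both sexes with 1 sign, and up to 3 per list with the largest change among those called with sex as a covariate, were named. Genes sharing exons with a member, the nearest tested genes of baz and the 3 most like it were named too. RefSeq (Release 6) synonyms matched 1 member and 7 partner genes by older symbols. No sequence was used here.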

Additional observations from a re-analysis of the deposited data

How the results depend on the processing

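Of 646 alternative values for the members, 600 kept direction and side of the threshold, 19 fell short of it, 9 newly passed it and 18 changed sign, 0 of these called in either setting. The sign changes were of small values. par-6 in females turned from -0.014 to 0.0099 with library size scaling and to 0.0055 among X-linked genes alone. With sex as a covariate, par-6 turned to -0.010 and pins to -0.0021 under the replicate block. Without 12xWT female replicate 2 and male replicate 3, the sex difference turned for insc (0.042) and l(2)gl (0.0017). Leaving out single libraries gave values of both signs for mud in females (-0.081 to 0.020), for par-6 (-0.0052 to 0.0082) and pins (-0.0050 to 0.021) with sex as a covariate, and for the sex difference of insc (-0.14 to 0.017) and dlg1 (-0.057 to 0.039). The calls of baz and aPKC in each sex held in every alternative run. baz lay between -0.75 and -0.69 in females and between -1.29 and -1.21 in males. aPKC lay between 0.23 and 0.27 in females and between 0.17 and 0.22 in males. For the genotype by sex difference, DESeq2 called 1 member and 11 genes in all, fitting without an expression filter 1 and 3, and leaving out 12xWT female replicate 2 and male replicate 3 together (chosen after seeing the data) 1 and 3, in place of 0 and 0; the 1 member was baz. Leaving out that pair gave 2 members and 5 partner genes called in males in place of 4 and 9. DESeq2 gave 8 partner genes in females in place of 5, and a fit of males only gave 2 in males. Leaving out 1 library at a time gave 1 to 5 partner genes and 698 to 1482 genes of all called in females, 2 to 4 members, 2 to 11 partner genes and 958 to 2406 genes in males, and 0 to 1 members and 0 to 3 genes for the sex difference. Replicate numbers did not pair libraries (correlations of deviations from -0.172 to 0.104); with them as a block, baz was at -0.75 in females and -1.27 in males, partner calls were 3 in females, 4 in males and 13 with sex as a covariate (21 without the block), and 1527 genes were called in males in place of 2338. The causes were not tested. Depth limits none of the members, which all had over 40 CPM in yw.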
